A study of Homo sapiens with 9 samples.

Results

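Genes of the major histocompatibility complex (MHC) class I presentation route were followed in A673 cells after knockdown of LRWD1. The 9 genes were HLA-B, HLA-C, HLA-E, B2M, TAP1, TAP2, TAPBP, ERAP1 and NLRC5. They were taken by gene symbol from a table of 23368 symbols, and all 9 of the 9 passed the filter on low counts, along with 13648 genes in all. A673 is an established Ewing sarcoma line, and LRWD1 encodes a protein that associates with the origin recognition complex and heterochromatin. The comparison was of 3 groups of 3 libraries each: cells given a scrambled siRNA, cells given siLRWD1-5 and cells given siLRWD1-6, each at 13 nM by reverse transfection with siLentFect and harvested after 48 h. Cells of all groups were grown in a medium that contained Zeocin and blasticidin, and the 3 libraries of a group come from independent experiments. The design covers 1 cell line and 2 siRNAs against the same transcript; untransfected cells were not analysed here.

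Class I molecules carry short peptides from inside the cell to its surface, where CD8 T cells and natural killer cells inspect them. Peptides cut by the proteasome are pumped into the endoplasmic reticulum by the transporter TAP1-TAP2, trimmed there by ERAP1, and loaded with the help of tapasin (TAPBP) onto a heavy chain (HLA-B, HLA-C or HLA-E) paired with the light chain β2-microglobulin (B2M). Promoters of genes of this route can hold elements that answer to interferon regulatory factors, NF-κB or the transactivator NLRC5. Low class I expression is a known feature of Ewing sarcoma.

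RefSeq promoter windows (GRCh38.p14, 250 bases before to 50 bases after a start) were at hand for 7 of the 9 genes, 9 windows in all. The stretches that carry the matches are shown. They are printed 5′ to 3′ on the strand of the gene, with motif matches in capitals: the interferon-stimulated response element (GAAA, 2 bases of any kind, then GAAA, on either strand), the κB core (GGG, 2 bases of any kind, then TTTCC, on either strand) and, in HLA-B, the class I enhancer A, whose 11 letters are those in capitals. In HLA-C the capitals mark the best match to enhancer A.
HLA-B, chr6:31357227-31357376, minus strand: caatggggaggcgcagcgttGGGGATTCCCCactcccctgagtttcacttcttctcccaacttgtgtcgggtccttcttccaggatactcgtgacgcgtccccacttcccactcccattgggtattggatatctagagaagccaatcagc
HLA-C, chr6:31272136-31272285, minus strand: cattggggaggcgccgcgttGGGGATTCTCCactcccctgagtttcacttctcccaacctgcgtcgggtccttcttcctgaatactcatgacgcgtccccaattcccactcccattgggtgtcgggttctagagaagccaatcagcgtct
B2M, chr15:44711348-44711426, plus strand: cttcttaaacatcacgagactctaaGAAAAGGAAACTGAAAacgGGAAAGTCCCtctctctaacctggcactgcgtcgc
TAP1, chr6:32853742-32853863, minus strand: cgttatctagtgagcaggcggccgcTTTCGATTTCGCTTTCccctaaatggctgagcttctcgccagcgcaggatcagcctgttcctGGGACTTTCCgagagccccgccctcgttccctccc
TAP2, chr6:32838763-32838822, minus strand: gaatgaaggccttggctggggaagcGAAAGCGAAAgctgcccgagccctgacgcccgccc
TAPBP, chr6:33314058-33314159, minus strand: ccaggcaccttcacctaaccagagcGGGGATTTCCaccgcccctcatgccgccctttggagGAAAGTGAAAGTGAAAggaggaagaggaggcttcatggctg
ERAP1, chr5:96807909-96807968, minus strand: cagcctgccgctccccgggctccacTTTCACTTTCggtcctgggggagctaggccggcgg

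The exact interferon element pattern was found in 5 of the 7 genes (B2M, TAP1, TAP2, TAPBP and ERAP1), beside 3.57% of the 35116 RefSeq windows of this length. In B2M, TAP1 and TAPBP it occurred as 2 matches that overlap each other by their shared 4 letters. The HLA-B and HLA-C stretches hold tttcacttct, which departs from the pattern and is not marked. The exact pattern cannot show that these promoters lack an interferon element. The κB core was found in B2M, TAP1 and TAPBP, beside 1.91% of all windows, and enhancer A in HLA-B, beside 0.0313% (11 windows). The best HLA-C match to enhancer A differs by 1 substitution, C9T, counted from 1 at the 5′ end of the element. No window of the 7 genes held the cyclic AMP response element core TGACGT, which 7.98% of all windows hold. A CCAAT box (CCAAT) lay in HLA-B, HLA-C, B2M, TAP1 and ERAP1, beside 34.6% of all windows, and the interferon gamma activated site core (TTCNNNGAA) lay only in the second TAP1 window, beside 7.66%. All motifs were searched on both strands, and a match describes the letters in the window, not a bound site.

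**Figure D1:**
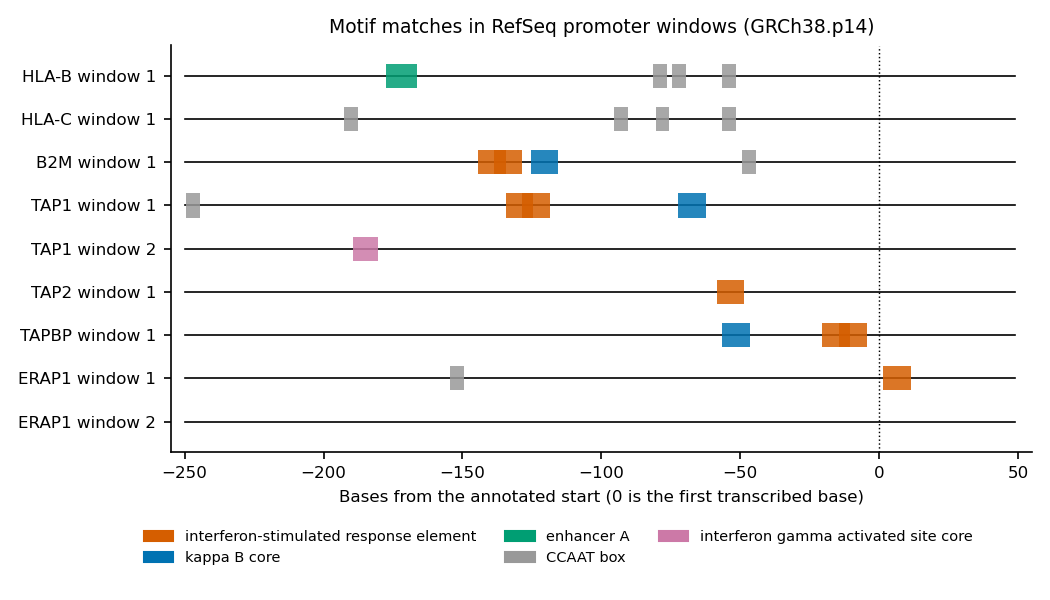
Motif matches (coloured boxes) along the 9 RefSeq promoter windows of the 7 genes that have them; the x axis gives bases from the annotated start, with 0 the first transcribed base. Exact matches to the interferon element pattern (orange) sit in the first windows of B2M, TAP1, TAP2, TAPBP and ERAP1. κB cores (blue) sit in B2M, TAP1 and TAPBP, and enhancer A (green) in HLA-B only.

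Libraries held 11971179 to 15674452 counts. LRWD1 was at 49.1, 54.6 and 49.3 CPM (counts relative to the library total, scaled by edgeR's TMM factors) with scrambled siRNA, 10.6, 11.3 and 10.4 with siLRWD1-5, and 6.55, 8.11 and 8.55 with siLRWD1-6, which left 21.1% and 15.1% of its level. Scrambled replicate 2 stood apart from its group: the chi-square per gene against replicates 1 and 3 was 30.2 and 25.7, while every other pair of replicates had 3.10 to 5.75. Among the genes followed here this library was high for HLA-E (log2 difference 0.96 from the other scrambled libraries, above 97.6% of genes tested) and NLRC5 (0.70, above 95.4%), then TAP1 (0.40) and HLA-C (0.28), while TAP2, TAPBP and ERAP1 were close to the other scrambled libraries (−0.03, 0.02 and −0.01). Calls on the 9 genes and list counts that change without it are given both ways. Leukocyte markers summed to 1.01 to 1.70 CPM in every library, with CD3E and MS4A1 at 0 throughout, and endothelial markers to at most 1.22 CPM. Of the Ewing sarcoma markers, CD99 had 0 counts in 8 libraries and 50 counts in siLRWD1-5 replicate 2, and the other 7 were expressed. How CD99 reads were counted is not given in the sources used here, so these counts do not show that the gene is silent.

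With siLRWD1-5, 5 of the 9 genes rose (TAP1, TAP2, ERAP1, HLA-B and TAPBP, by 1.69-fold to 2.90-fold), HLA-C fell 1.24-fold, and HLA-E, B2M and NLRC5 did not pass the test (adjusted p under 0.05, quasi-likelihood test of edgeR, Benjamini-Hochberg adjustment over all genes tested). Over all genes tested, 18.5% were called higher and 20.3% lower. The median log2 fold change of the 9 genes was 0.75, against −0.01 over all genes. The 9 genes and the lists were chosen with earlier results of these data known. Counts and medians set beside all genes are therefore descriptions, not tests of a set. With siLRWD1-6, 0 of the 9 were called higher and TAP2 alone was called lower, where 8.81% of all genes were called higher and 7.78% lower. At an unadjusted p under 0.05 the edgeR count was again 0 higher and 1 lower, and DESeq2 and limma-voom gave the same counts. The median log2 fold change there was −0.14, against −0.02 over all genes. Both comparisons use the same 3 scrambled libraries. Without scrambled replicate 2, siLRWD1-5 gave 7 higher and 1 lower, and siLRWD1-6 gave 0 higher and 1 lower, while calls over all genes rose to 23.98% higher and 24.98% lower with siLRWD1-5 and to 15.3% and 13.3% with siLRWD1-6. These shares are the background of every list count given without that library. In bulk RNA, a change in the share of cells that express a gene and a change in RNA per cell cannot be told apart.

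**Figure D2:**
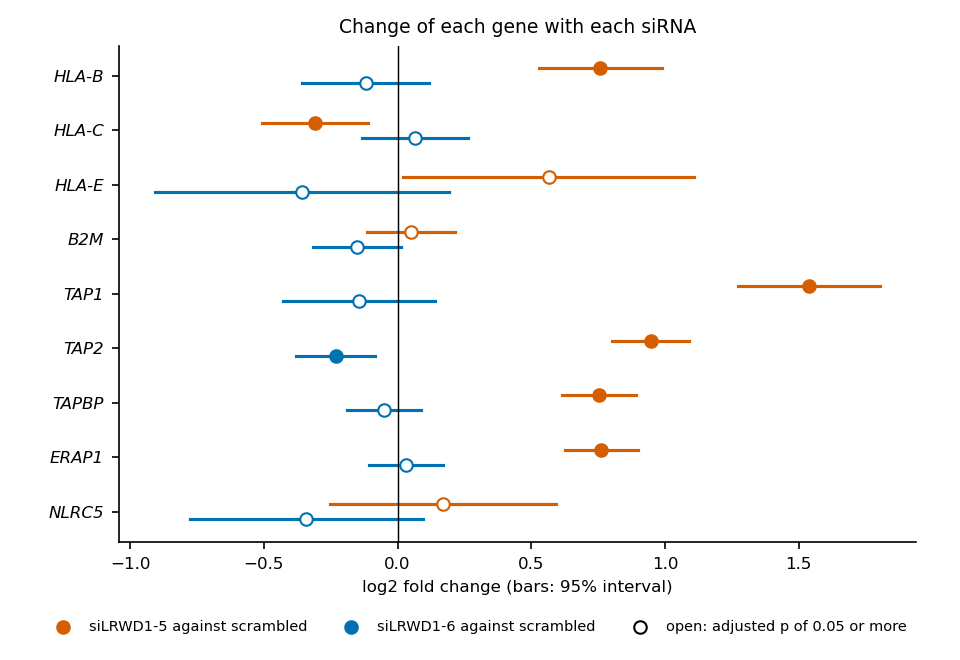
Log2 fold change of each gene against scrambled siRNA (points, with 95% intervals as bars) for siLRWD1-5 (orange) and siLRWD1-6 (blue); filled points have an adjusted p under 0.05. TAP1, TAP2, TAPBP, ERAP1 and HLA-B lie between 0.75 and 1.54 with siLRWD1-5 and between −0.23 and 0.03 with siLRWD1-6.

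TAP1 and TAP2 form the pump that brings peptides into the endoplasmic reticulum, and both rose with siLRWD1-5. TAP1 was at 8.59, 11.8 and 9.34 CPM with scrambled siRNA, 28.8, 29.3 and 27.9 with siLRWD1-5, and 8.15, 9.13 and 9.57 with siLRWD1-6. The siLRWD1-5 libraries stood far above all 6 others, which overlapped. TAP1 rose 2.90-fold with siLRWD1-5 (log2 1.54, SE 0.12, adjusted p 3.2e-06), rank 172 from the top among the genes tested. With siLRWD1-6 its log2 fold change was −0.14 (95% interval −0.43 to 0.14, adjusted p 0.5005).

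TAP2 was at 47.0, 46.0 and 47.1 CPM with scrambled siRNA, 89.9, 93.8 and 86.0 with siLRWD1-5, and 37.7, 39.7 and 41.9 with siLRWD1-6. The 3 groups did not overlap, with siLRWD1-5 highest and siLRWD1-6 lowest. TAP2 rose 1.93-fold with siLRWD1-5 (log2 0.95, SE 0.07, adjusted p 1.4e-06) and fell 1.17-fold with siLRWD1-6 (log2 −0.23, SE 0.07, adjusted p 0.0370). The lower call with siLRWD1-6 was lost in 9 of the 18 alternative fits, at log2 values of −0.19 to −0.25, among them the fits without scrambled replicate 1 or 3, without siLRWD1-5 replicate 1 or 2, and without any 1 siLRWD1-6 library. Per 100 TAP2 reads there were 18.3, 25.7 and 19.8 TAP1 reads with scrambled siRNA, 32.0, 31.3 and 32.5 with siLRWD1-5, and 21.6, 23.0 and 22.8 with siLRWD1-6, so that the siLRWD1-5 libraries had the highest share of TAP1 as well as more of each gene.

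**Figure D3:**
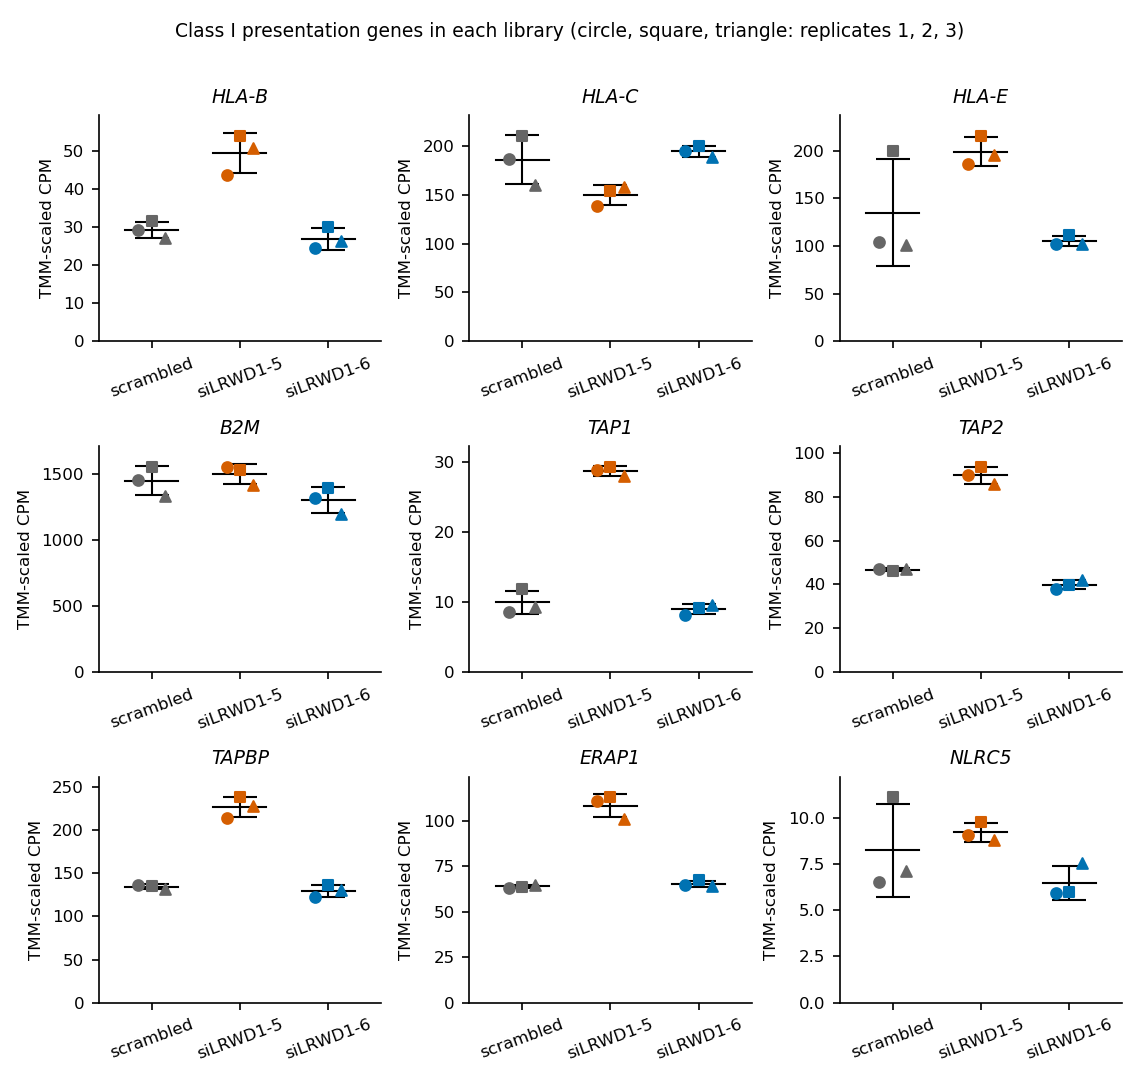
TMM-scaled CPM of each of the 9 genes in every library (points; circle, square and triangle are replicates 1, 2 and 3), with the group mean (line) and SD (bars, n = 3); each y axis starts at 0. The siLRWD1-5 libraries lie above the other 6 for HLA-B, TAP1, TAP2, TAPBP and ERAP1, and scrambled replicate 2 (grey square) lies near the siLRWD1-5 level for HLA-E.

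TAPBP, which encodes the tapasin that holds empty class I at the transporter, was at 136.8, 136.0 and 131.6 CPM with scrambled siRNA, 214.7, 238.5 and 228.4 with siLRWD1-5, and 122.6, 136.6 and 131.1 with siLRWD1-6. The siLRWD1-5 libraries were again above all others, and the other groups overlapped. TAPBP rose 1.69-fold with siLRWD1-5 (log2 0.75, SE 0.06, adjusted p 5.0e-06), and with siLRWD1-6 its log2 fold change was −0.05 (95% interval −0.19 to 0.09). ERAP1, the aminopeptidase that trims peptides to fit the class I groove, was at 63.1, 63.6 and 64.8 CPM with scrambled siRNA, 110.7, 112.9 and 101.0 with siLRWD1-5, and 64.5, 67.1 and 64.3 with siLRWD1-6. Only the siLRWD1-5 libraries separated from the rest. ERAP1 rose 1.70-fold with siLRWD1-5 (log2 0.76, SE 0.06, adjusted p 4.4e-06), and with siLRWD1-6 its log2 fold change was 0.03 (95% interval −0.11 to 0.17).

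The heavy chains went in different directions. HLA-B, a classical chain that presents peptides to CD8 T cells, was at 29.1, 31.5 and 27.1 CPM with scrambled siRNA, 43.6, 54.0 and 50.9 with siLRWD1-5, and 24.4, 30.0 and 26.3 with siLRWD1-6. The siLRWD1-5 libraries were the highest 3, and the other groups overlapped. HLA-B rose 1.69-fold with siLRWD1-5 (log2 0.76, SE 0.11, adjusted p 1.98e-04), and with siLRWD1-6 its log2 fold change was −0.12 (95% interval −0.36 to 0.12).

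HLA-C, a classical chain that is also the main ligand of inhibitory killer-cell receptors, was at 187.1, 210.5 and 160.4 CPM with scrambled siRNA, 138.5, 153.5 and 158.6 with siLRWD1-5, and 195.2, 199.7 and 188.9 with siLRWD1-6. The siLRWD1-5 libraries were the lowest 3, though the highest of them lay close to scrambled replicate 3. With siLRWD1-5, HLA-C fell to a log2 fold change of −0.31 (SE 0.09, adjusted p 0.0194). That call was lost without siLRWD1-5 replicate 1 (log2 −0.25, adjusted p 0.0860) and with only the compared groups in the fit (log2 −0.30, adjusted p 0.0522). With siLRWD1-6 the log2 fold change was 0.07 (95% interval −0.13 to 0.26).

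Within a library, HLA-B reads per 100 HLA-C reads were 15.6, 14.98 and 16.9 with scrambled siRNA, 31.5, 35.2 and 32.1 with siLRWD1-5, and 12.5, 15.03 and 13.9 with siLRWD1-6. This ratio does not depend on the scaling of libraries, and in it the siLRWD1-5 libraries were clearly apart. HLA genes resemble each other and differ between people and cell lines, and how reads that fit several of them were counted is not given in the sources used here, so the level of each HLA gene is uncertain.

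HLA-E, a conserved chain that displays leader peptides of other class I chains to the NKG2A and NKG2C receptors of natural killer cells, was at 103.7, 199.6 and 101.1 CPM with scrambled siRNA, 185.8, 215.7 and 196.0 with siLRWD1-5, and 101.9, 111.2 and 102.0 with siLRWD1-6. Scrambled replicate 2 lay inside the range of siLRWD1-5, and the other 2 scrambled libraries lay with siLRWD1-6. The difference with siLRWD1-5 did not pass the test with all libraries (log2 0.57, 95% interval 0.02 to 1.11, adjusted p 0.0943). Without scrambled replicate 2 it passed, at log2 0.96 (adjusted p 2.2e-10), and limma-voom called it with all libraries (log2 0.64, adjusted p 0.0271). With siLRWD1-6 the log2 fold change was −0.36 (95% interval −0.91 to 0.19) with all libraries and 0.05 without scrambled replicate 2.

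B2M, the light chain that every class I heavy chain needs, was by far the most abundant of the 9, at 1454, 1559 and 1339 CPM with scrambled siRNA, 1559, 1534 and 1416 with siLRWD1-5, and 1322, 1396 and 1202 with siLRWD1-6. The ranges of scrambled and siLRWD1-5 overlapped almost fully. The log2 fold change of B2M was 0.05 with siLRWD1-5 (95% interval −0.11 to 0.22, adjusted p 0.624) and −0.15 with siLRWD1-6 (95% interval −0.32 to 0.01, adjusted p 0.200). The upper bound with siLRWD1-5 lies below the lower bound of each of the 5 genes that rose. The B2M promoter stretch shown above holds the same 2 kinds of match, interferon element and κB core, as those of TAP1 and TAPBP. No link between promoter matches and changes in RNA was tested.

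NLRC5, the transactivator of class I genes, was the least abundant, at 6.51, 11.1 and 7.10 CPM with scrambled siRNA, 9.07, 9.78 and 8.77 with siLRWD1-5, and 5.92, 5.99 and 7.53 with siLRWD1-6. Scrambled replicate 2 was the highest library of all, and the other 2 scrambled libraries overlapped siLRWD1-6. With all libraries the log2 fold change was 0.17 with siLRWD1-5 (95% interval −0.25 to 0.59, adjusted p 0.518) and −0.34 with siLRWD1-6 (95% interval −0.78 to 0.10, adjusted p 0.278). Without scrambled replicate 2, NLRC5 passed the test with siLRWD1-5 at log2 0.44 (adjusted p 0.0200).

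**Figure D4:**
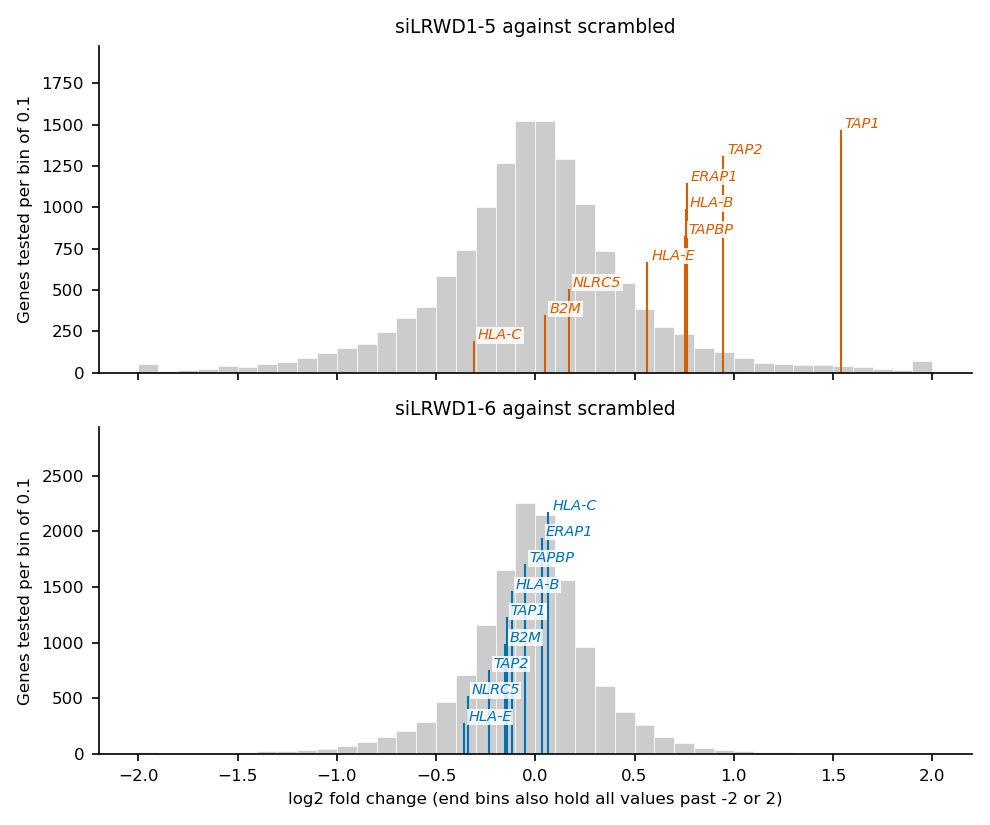
Number of tested genes (grey bars, bins of 0.1) by log2 fold change against scrambled siRNA, with the 9 genes marked by lines whose heights only separate their names; the end bins also hold all values past −2 or 2. With siLRWD1-5 TAP1 lies at 1.54 in the right tail and B2M at 0.05 in the centre, and with siLRWD1-6 all 9 lie between −0.36 and 0.07.

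The siRNAs were also set against each other, which uses no scrambled library for the fold change itself. TAP1, TAP2, TAPBP, ERAP1, HLA-B, HLA-E and B2M were lower with siLRWD1-6 than with siLRWD1-5 and HLA-C was higher, that is 7 lower and 1 higher of 9. Over all genes tested, 22.4% were called higher and 20.9% lower, so that 51.7% of calls were higher, a share that dropped to 40.7% without TMM scaling. The log2 differences (siLRWD1-6 minus siLRWD1-5) were −1.68 for TAP1 (adjusted p 1.4e-06), −1.18 for TAP2 (2.3e-07), −0.88 for HLA-B (5.8e-05), −0.80 for TAPBP (2.3e-06) and −0.73 for ERAP1 (4.7e-06). HLA-E differed by −0.92 (SE 0.24, adjusted p 0.0143) and HLA-C by 0.37 (SE 0.09, adjusted p 0.00615). For B2M the log2 difference was −0.20 (SE 0.07, adjusted p 0.0470), a call that 6 of the 18 alternative fits lost at values of −0.13 to −0.21, among them those without scrambled replicate 1, siLRWD1-5 replicate 1 or 2, or siLRWD1-6 replicate 1 or 3. NLRC5 did not pass (log2 −0.51, adjusted p 0.0546), although its groups did not overlap; 7 of the 18 alternative fits called it lower, among them limma-voom (log2 −0.52, adjusted p 0.0487) and the fits without scrambled replicate 1 (−0.51, adjusted p 0.0387) or 2 (−0.50, adjusted p 0.00377). LRWD1 itself was lower with siLRWD1-6 than with siLRWD1-5 (log2 −0.48, SE 0.12, adjusted p 0.00582).

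Levels per kilobase of exon (CPM per kb, lengths from GENCODE v29) put the 9 genes in order. With scrambled siRNA the ranges over 3 libraries were 563 to 656 for B2M, 103 to 135 for HLA-C, 38.9 to 76.7 for HLA-E, 31.4 to 32.6 for TAPBP, 17.1 to 19.9 for HLA-B, 8.50 to 8.74 for ERAP1, 7.44 to 7.62 for TAP2, 2.904 to 3.999 for TAP1 and 0.954 to 1.63 for NLRC5. No neighbours in this order overlapped. With siLRWD1-5 the order was kept except that TAP2 (13.9 to 15.2 CPM per kb) and ERAP1 (13.6 to 15.2) could no longer be separated, and with siLRWD1-6 it was kept with no overlap between neighbours. TAP1 was the scarcer transporter subunit in every group by this measure, at 9.44 to 9.91 CPM per kb with siLRWD1-5. In GENCODE v29 some exon bases are shared with other genes: ERAP1 with CAST on the opposite strand, TAP1 with PSMB8-AS1 on the opposite strand TAP2 with AL669918.1 on the same strand, HLA-B with HLA-C on the same strand (33 bases) and HLA-B with AL671883.2 on the opposite strand, and their part in these counts was not tested.

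Across the 9 libraries TAP1, TAP2, TAPBP and ERAP1 followed each other with Pearson r of 0.969 to 0.983 on log2 CPM, while HLA-B and HLA-C had r of −0.69. These values describe 9 libraries in 3 groups, so that a difference between groups sets most of each r. Among 10898 genes of at least 5 CPM, those most like TAP1 were NIPA1, a magnesium transporter gene (r 0.997), LITAF (0.994) and the death receptor gene TNFRSF21 (0.994). Those most like HLA-B were EBI3, a cytokine subunit gene (r 0.990), ICOSLG, which encodes a T cell costimulatory ligand (0.986), and TAPBP (0.984). EBI3 averaged 13.96 CPM with scrambled siRNA, 53.5 with siLRWD1-5 and 11.3 with siLRWD1-6, and ICOSLG 11.1, 55.3 and 10.2. For B2M the closest were HRAS (r 0.934), FAM127B (0.926) and SLC38A6 (0.925).

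The steps before the transporter also changed with siLRWD1-5. Of all genes, 18.5% were called higher and 20.3% lower with siLRWD1-5, and 8.81% and 7.78% with siLRWD1-6. Of 5 immunoproteasome and proteasome activator genes, 3 rose and 0 fell: PSMB8 1.99-fold, PSMB9 3.47-fold and the activator subunit PSME1 1.15-fold. DESeq2 and limma-voom gave the same counts, and 0 of the 5 were lower at an unadjusted p under 0.05. PSMB8, a catalytic subunit of the interferon-induced proteasome, was at 7.64, 8.19 and 6.79 CPM with scrambled siRNA, 14.7, 18.0 and 12.3 with siLRWD1-5, and 5.365, 5.63 and 5.76 with siLRWD1-6. PSMB9, the neighbour of TAP1 in the genome and a second such subunit, was scarce, at 0.695, 0.891 and 1.23 CPM with scrambled siRNA, 3.97, 3.26 and 2.44 with siLRWD1-5, and 0.279, 0.731 and 0.0847 with siLRWD1-6. For both genes the siLRWD1-5 libraries were the highest 3. With siLRWD1-6, 0 of the 5 passed in edgeR, DESeq2 or limma-voom, with 3 lower and 0 higher at an unadjusted p under 0.05. The 3 constitutive catalytic subunits gave 0 higher and 1 lower with each siRNA, PSMB6 by 1.15-fold with siLRWD1-5 and 1.19-fold with siLRWD1-6; DESeq2 and limma-voom gave the same counts, and 0 were higher at an unadjusted p under 0.05. Of 8 cytosolic and other peptidases, 3 fell with siLRWD1-5 (NRD1 1.66-fold, THOP1 1.46-fold and NPEPPS 1.25-fold) and LAP3 fell with siLRWD1-6 (1.26-fold). Leaving out scrambled replicate 2 made the peptidase counts with siLRWD1-5 2 higher and 4 lower.

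Several genes of a list of class I chaperones and other proteins of the endoplasmic reticulum rose with each siRNA. Of 10 tested, 6 rose and 0 fell with siLRWD1-5, among them TAPBPL, the tapasin-like peptide editor (1.804-fold), UGGT1 (1.29-fold), TMEM129 (1.26-fold) and PDIA3, the thiol oxidoreductase that partners tapasin (1.23-fold). With siLRWD1-6, 5 rose and 0 fell: HSPA5, the general stress-induced chaperone BiP (1.84-fold), PDIA3 (1.27-fold), the lectin chaperones CALR (1.26-fold) and CANX (1.25-fold), and 1 more. Of all genes, 18.5% were called higher and 20.3% lower with siLRWD1-5, and 8.81% and 7.78% with siLRWD1-6. TAPBPL was lower with siLRWD1-6 than with siLRWD1-5 (log2 −0.80, adjusted p 1.92e-04) and HSPA5 was higher (log2 0.59, adjusted p 1.46e-04). Without scrambled replicate 2 the counts were 8 higher with siLRWD1-5 and 6 higher with siLRWD1-6, beside 23.98% and 15.3% of all genes. DESeq2 and limma-voom also called 0 genes of this list lower, and 0 were lower at an unadjusted p under 0.05 with either siRNA.

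Of 15 transcription factors known to act on class I promoters, 7 rose and 1 fell with siLRWD1-5, and 2 rose and 1 fell with siLRWD1-6. The shares of all genes were 18.5% higher and 20.3% lower with siLRWD1-5, and 8.81% and 7.78% with siLRWD1-6. IRF1, an activator that binds interferon elements, was at 13.0, 16.6 and 12.3 CPM with scrambled siRNA, 31.4, 45.5 and 33.2 with siLRWD1-5, and 20.8, 24.8 and 24.4 with siLRWD1-6. Its groups did not overlap, and it rose 2.63-fold with siLRWD1-5 (adjusted p 6.6e-05) and 1.67-fold with siLRWD1-6 (adjusted p 0.0108). IRF1 was lower with siLRWD1-6 than with siLRWD1-5 (log2 −0.65, edgeR adjusted p 0.00558). The part of IRF1 in the changes of the 9 genes was not tested. With siLRWD1-5 the NF-κB subunit RELB rose 1.62-fold and IRF2 1.38-fold, while CREB1 fell 1.69-fold. With siLRWD1-6 ATF1 rose 1.44-fold and RFXAP fell 1.46-fold. Without scrambled replicate 2 the counts were 9 higher and 2 lower with siLRWD1-5, and 5 higher and 1 lower with siLRWD1-6, in a fit that also called more of all genes (23.98% and 15.3% higher).

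Interferon receptors and their signalling genes moved in both directions: of 11, 4 rose and 4 fell with siLRWD1-5, and 1 rose and 1 fell with siLRWD1-6. The shares of all genes were 18.5% higher and 20.3% lower with siLRWD1-5, and 8.81% and 7.78% with siLRWD1-6. The receptor chains IFNAR2 (1.62-fold) and IFNGR2 (1.47-fold) rose with siLRWD1-5, and the signal transducers STAT2 (1.42-fold) and JAK1 (1.32-fold) fell. With siLRWD1-6 STAT2 rose 1.23-fold and IRF9 fell 1.55-fold. In the fit without scrambled replicate 2 the counts were 5 higher and 4 lower with siLRWD1-5, and 3 higher and 1 lower with siLRWD1-6. Scrambled replicate 2 was also the highest library for IRF9, at 25.2 CPM beside 15.98 and 16.2 in the other scrambled libraries. Of 30 other interferon-inducible genes, 12 rose and 3 fell with siLRWD1-5 (median log2 0.24), and 0 rose and 9 fell with siLRWD1-6 (median −0.34) in edgeR. At an unadjusted p under 0.05 the latter counts were 0 and 18, with 0 higher in DESeq2 and limma-voom too. Leaving out scrambled replicate 2 gave 13 higher and 4 lower with siLRWD1-5, and 0 higher and 11 lower with siLRWD1-6. PARP14 (1.93-fold), PARP9 (1.90-fold) and DTX3L (1.88-fold) rose with siLRWD1-5 and GBP3 fell 2.04-fold, whereas IFI44 (1.64-fold), PARP9 (1.33-fold), OAS3 (1.31-fold) and IFIT5 (1.21-fold) fell with siLRWD1-6. The list summed to 429 to 437 CPM with scrambled siRNA, 547 to 579 with siLRWD1-5 and 336 to 361 with siLRWD1-6, and these ranges did not overlap.

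**Figure D5:**
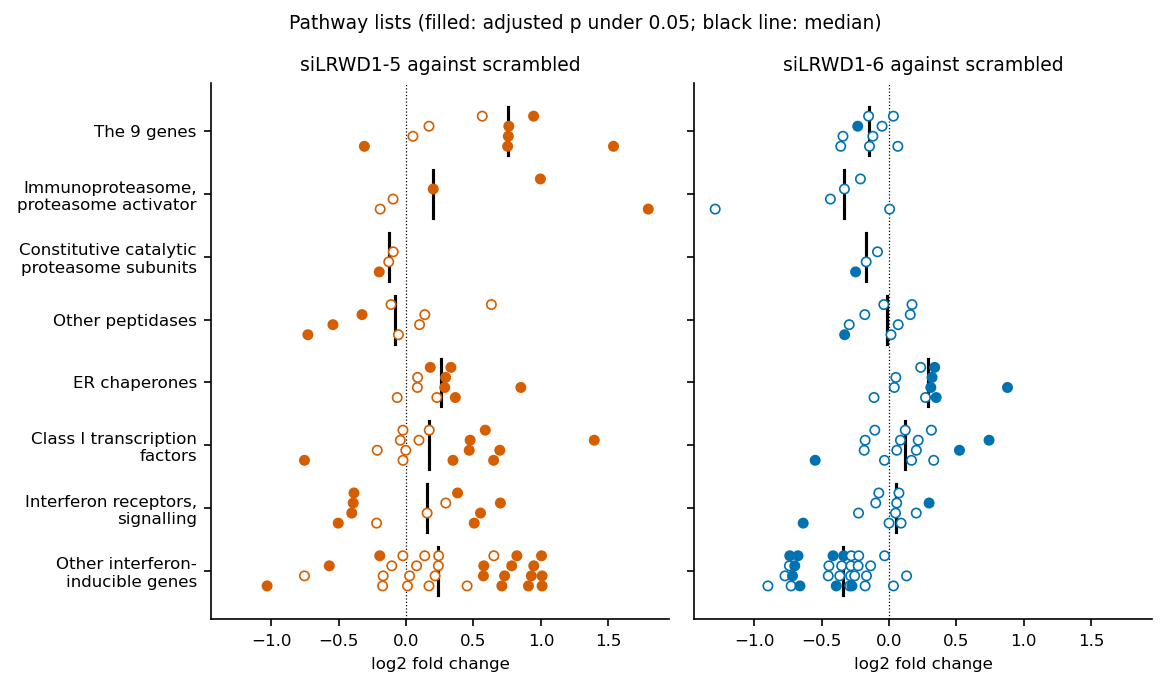
Log2 fold change against scrambled siRNA of the 9 genes and of 7 lists of related genes (points; filled where the adjusted p is under 0.05) with the median of each list (black line). The 9 genes have medians of 0.75 with siLRWD1-5 and −0.14 with siLRWD1-6, and the other interferon-inducible genes 0.24 and −0.34. The row named ER chaperones also holds other proteins of the endoplasmic reticulum.

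Polycomb repressive complex 2, which silences class I genes in several cancers, showed small changes: of 7 genes, MTF2 rose 1.13-fold and EZH2 (1.22-fold), JARID2 (1.20-fold) and EZH1 (1.23-fold) fell with siLRWD1-5, while MTF2 alone passed with siLRWD1-6 (1.36-fold higher) with all libraries in the fit. Leaving out scrambled replicate 2 gave 2 higher and 2 lower of the 7 with siLRWD1-6. With all libraries, 18.5% of all genes were called higher and 20.3% lower with siLRWD1-5, and 8.81% and 7.78% with siLRWD1-6. EZH2, the methyltransferase, was at 145.9, 134.7 and 144.6 CPM with scrambled siRNA, 120.3, 117.3 and 110.7 with siLRWD1-5, and 133.2, 131.9 and 123.5 with siLRWD1-6. Class II presentation genes, which mark professional antigen-presenting cells, were nearly silent: 13 genes summed to 1.38 to 3.24 CPM per library, HLA-DRA, HLA-DRB5 and HLA-DQA1 had 0 counts in all 9, and neither of the 2 that could be tested was called by edgeR, DESeq2 or limma-voom, with 1 lower at an unadjusted p under 0.05 for each siRNA. Of 7 Ewing sarcoma markers tested, 5 fell with siLRWD1-5, among them STEAP1 (1.64-fold), FLI1 (1.43-fold), NR0B1 (1.78-fold) and NKX2-2 (1.45-fold), and 0 were called with siLRWD1-6 by edgeR, DESeq2 or limma-voom (1 higher and 2 lower at an unadjusted p under 0.05). Leaving out scrambled replicate 2, 3 of the 7 were called higher and 0 lower with siLRWD1-6, and 5 lower and 0 higher with siLRWD1-5. The 8 markers summed to 2543 to 3394 CPM with scrambled siRNA, 1872 to 2160 with siLRWD1-5 and 2358 to 2579 with siLRWD1-6, sums made up mostly of CCND1 (means of 2391, 1652 and 1941 CPM), while FLI1 averaged 71.1, 49.6 and 83.0 CPM. The part of these marker changes in the class I results was not tested. The epithelial marker KRT8 rose 1.48-fold with siLRWD1-5, from 5.40 to 8.10 CPM with scrambled siRNA to 8.95 to 10.6.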

How the data were processed

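The authors deposited raw read counts per gene symbol for 9 TruSeq libraries of total RNA, per the labels' protocols. Reads were processed with bcl2fastq 1.8.4, TopHat2 2.0.10 and HTSeq 0.5.4p3 on hg19, per the submitters' processing notes. Not given in the sources used here are the annotation, the counting mode and strand setting, so reads shared by overlapping or similar genes may be lost or assigned to either. Here genes were filtered with filterByExpr, TMM-scaled, and tested in R 4.3.3 with edgeR 4.0.16 (robust quasi-likelihood fit, group as the only term, all 9 libraries), with Benjamini-Hochberg adjustment over 13648 genes. In the main fit, p-values rest on the spread of libraries within their groups, 3 a group. That spread was estimated from all 9 libraries, with information shared across genes. A library outside a comparison therefore also bears on its p-values. DESeq2 1.42.0, limma-voom (limma 3.58.1), other scalings, filters and left-out libraries served as alternatives, and the fit was tested on simulated data. CPM per kb uses exon lengths from GENCODE v29. RefSeq promoters are of GRCh38.p14, not the build of the counts.

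The 9 genes and the lists were chosen with earlier results of these data known. Named genes are the 9, LRWD1, the 4 called genes of smallest p in each list and comparison with scrambled siRNA, and the 3 genes most like HLA-B, B2M and TAP1 by Pearson r. IRF9 in scrambled replicate 2, CCND1 and list genes set between the siRNAs were named after their values were seen.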

Additional observations from a re-analysis of the deposited data

Results flagged for a closer look

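For 8 of the 9 genes the effects of the siRNAs differed by a direct test, edgeR's comparison of siLRWD1-6 with siLRWD1-5, with log2 differences of −0.88 for HLA-B, 0.37 for HLA-C, −0.92 for HLA-E, −0.20 for B2M, −1.68 for TAP1, −1.18 for TAP2, −0.80 for TAPBP and −0.73 for ERAP1. In all 9 genes, the uncalled NLRC5 included, the libraries of siLRWD1-5 and siLRWD1-6 did not overlap. The share of all genes without overlap was not computed. LRWD1 was lower with siLRWD1-6 (6.55 to 8.55 CPM) than with siLRWD1-5 (10.4 to 11.3 CPM). The part of the LRWD1 level in these differences was not tested.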

How the results depend on the processing

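Each of the 27 pairs of gene and comparison was recomputed under 18 alternatives, and of these 486 values 450 kept their direction and side of the threshold, 17 lost a call, 14 gained one and 5 changed sign. The sign changes were all of values that were not called: over the left-out libraries, B2M with siLRWD1-5 ranged from −0.0057 (without scrambled replicate 3) to 0.10 (without scrambled replicate 2), and with siLRWD1-6 HLA-C ranged from −0.0298 to 0.17 (without the same libraries), HLA-E from −0.53 (without scrambled replicate 3) to 0.0476 (without scrambled replicate 2) and TAP1 from −0.24 (without scrambled replicate 1) to 0.0080 (without scrambled replicate 2). With siLRWD1-6, HLA-E was 0.0033 with only the libraries numbered 1 and 3, an alternative chosen after seeing the data. The number of the 9 called lower with siLRWD1-5 was 0 with only the compared groups in the fit and 0 to 1 over the left-out libraries. With siLRWD1-6 it was 0 with no filter on low counts, 0 with only the compared groups and 0 to 1 over the left-out libraries. Among all genes, siLRWD1-6 gave 696 lower with only the compared groups, and 1933 higher and 1646 lower with libraries 1 and 3. Leaving out a library in turn gave 702 to 2115 higher and 546 to 1838 lower, with the highest counts without scrambled replicate 2, the lowest without siLRWD1-6 replicate 1, 763 and 606 without siLRWD1-6 replicate 2, and 613 lower without siLRWD1-6 replicate 3. HLA-E with siLRWD1-5 was called without scaling (log2 0.63) and without scrambled replicate 2 (0.96). The causes of the lost and gained calls were not tested.

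With the replicate number as a block, siLRWD1-5 gave 2887 genes higher and 3038 lower, siLRWD1-6 gave 1472 and 1343, and siLRWD1-6 against siLRWD1-5 gave 3335 and 3157. In the block fit HLA-E rose with siLRWD1-5 (log2 0.62) and NLRC5 was lower with siLRWD1-6 than with siLRWD1-5 (log2 −0.51), and no other call on the 9 genes changed. The labels number the libraries of every group as series 1 to 3 but do not say that a number marks a shared experiment, so the numbers were not taken as a pairing. Deviations from the group means correlated at 0.0528 to 0.359 between libraries of the same number and at −0.318 to 0.125 between others, and 8 of 9 libraries correlated best with their own number in both other groups, which is a hint of a pairing from the data. Among the 9 genes HLA-E, where scrambled replicate 2 stood apart, had the widest interval with siLRWD1-5 (SE 0.24), ahead of NLRC5 (SE 0.19), the least abundant.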

Other observations

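Relatives of the class I heavy chains that natural killer cells read moved in different directions with siLRWD1-5. Of 14 tested genes in a list of other heavy chains and class I-like genes, 5 rose and 3 fell, beside 18.5% and 20.3% of all genes. MICB, a stress-induced ligand of the activating receptor NKG2D, was at 27.9, 24.5 and 26.7 CPM with scrambled siRNA, 46.9, 41.7 and 45.4 with siLRWD1-5, and 24.5, 24.8 and 27.1 with siLRWD1-6. It rose 1.69-fold with siLRWD1-5 (edgeR adjusted p 3.7e-05), and the siLRWD1-5 libraries were the highest 3. ULBP3, another NKG2D ligand gene, rose 2.17-fold, from 3.32 to 4.05 CPM with scrambled siRNA to 7.79 to 8.67. The pseudogene HLA-L rose 2.53-fold.

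RAET1E, which also encodes an NKG2D ligand, fell 4.48-fold with siLRWD1-5, from 2.08, 3.40 and 2.08 CPM to 0.567, 0.593 and 0.487, and 2.37-fold with siLRWD1-6, to 1.11, 1.31 and 0.677 CPM. With siLRWD1-6, MR1, which presents vitamin metabolites to mucosal-associated T cells, fell 1.64-fold, and 0 of the 14 rose in edgeR, DESeq2 or limma-voom (3 higher and 2 lower at an unadjusted p under 0.05). Of all genes, edgeR called 8.81% higher and 7.78% lower with siLRWD1-6. Without scrambled replicate 2 the counts were 6 higher and 4 lower with siLRWD1-5, and 3 higher and 3 lower with siLRWD1-6, beside 23.98% higher and 24.98% lower of all genes with siLRWD1-5 and 15.3% and 13.3% with siLRWD1-6.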
